A study of Mus musculus with 12 samples.

Results

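The response of Gpx4-deficient regulatory T (Treg) cells to stimulation through CD3 and CD28 was described across all expressed genes. Treg cells are the Foxp3-expressing CD4 T cells that restrain other immune cells. They were sorted from mice of the strain Foxp3CreGpx4fl/fl, aged 11 weeks, in which Cre recombinase made from the Foxp3 gene removes a loxP-flanked Gpx4 in cells that express Foxp3. The members were 6 of the 12 libraries of the series, namely 3 libraries of stimulated and 3 of unstimulated Gpx4-deficient cells, and 14827 of the 24502 genes listed were expressed highly enough to be tested. Stimulated cells had spent 4 h on a plate coated with anti-CD3-CD28 (5 µg/ml). The other 6 libraries, 3 stimulated the same way and 3 unstimulated, came from Treg cells of mice of the same age labelled only WT, so whether these wild-type mice carried the Cre transgene is not given in the sources used here. No time in culture is given for the unstimulated cells, so stimulation and culture cannot be told apart. Nothing in the labels says that the libraries of a group came from separate mice or cultures, so p-values reflect how much the libraries vary among themselves, and that variation may be technical.

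GPX4 is a selenium-containing peroxidase that reduces lipid peroxides in membranes and so protects cells from ferroptosis, an iron-dependent form of death. Engagement of the T cell receptor with the costimulatory receptor CD28 activates NFAT, NF-kB, AP-1 and MYC, which drive early transcription factors, activation receptors and cytokines and then the uptake of nutrients and the making of ribosomes. In Treg cells the same signal also raises the suppressive program that includes the high-affinity interleukin-2 receptor and CTLA4.

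The 12 libraries held between 24629225 and 31879259 counts, and no 2 libraries of a group were identical. The stimulated Gpx4-deficient libraries stood apart from the others in several measures. Their common dispersion, a measure of the spread between replicates, was 1.43, against 0.675 in unstimulated Gpx4-deficient cells, 0.531 in stimulated and 0.337 in unstimulated wild-type cells. Between 13981 and 14917 genes had at least 1 count in them, against 15126 to 17577 in the unstimulated Gpx4-deficient libraries. Between 107 and 190 genes were at 0 in a stimulated Gpx4-deficient library while their mean elsewhere was at least 5 CPM (counts scaled to a common library total), against 9 to 57 in the unstimulated ones. Transcripts encoded by mitochondrial DNA took 3.19% ± 0.467 (SD, n = 3) of the counts after stimulation and 1.79% ± 0.129 before. The part of these differences in the results was not tested.

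The labels were checked first. Gpx4 (chr10:80047166-80056439 in GRCm38, a protein-coding gene) had 4.96, 7.3 and 12.3 CPM in the unstimulated and 3.34, 9.23 and 8.52 CPM in the stimulated Gpx4-deficient libraries, against 147, 172 and 142 and 107, 82.8 and 69.2 CPM in the wild-type ones. All 6 Gpx4-deficient values lay below all 6 wild-type values, and the Gpx4-deficient states overlapped (log2 fold change with its standard error, SE, −0.22, SE 0.40, adjusted p = 0.78 by edgeR). The Treg label was checked with 6 markers, Foxp3, Ikzf2, Il2ra, Ctla4, Cd4 and Cd3e, which were present in every Gpx4-deficient library, with a summed level of 2634 to 2806 CPM before and 5451 to 6267 CPM after stimulation. Foxp3 (chrX:7573644-7595245), the defining factor, had 35.1, 36.7 and 22.3 CPM unstimulated and 47.9, 75.9 and 68 CPM stimulated. These ranges did not overlap, and the rise was 1.02 on the log2 scale (SE 0.29) with an adjusted p of 0.0325. That call was lost, with adjusted p between 0.0562 and 0.122, when any 1 of the 3 unstimulated libraries or stimulated replicate 2 or 3 was left out.

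Summed levels of markers of other cell types lay below that of the Treg markers, but some single markers exceeded Foxp3. Jchain, of plasma cells, had 45.7, 40.9 and 82.1 CPM before and 131, 89.8 and 85.3 CPM after stimulation. Lyz2, of monocytes and macrophages, had 75.6, 59.8 and 111 CPM before and 65.1, 34.5 and 15.0 CPM after it. After stimulation the summed levels were 5.49 to 67.4 CPM for 10 B cell markers, 21.2 to 40.0 CPM for 10 markers of CD8 T and natural killer cells, 65.2 to 114 CPM for 11 of monocytes and macrophages and 4.92 to 57.3 CPM for 10 of neutrophils. Before stimulation the same sums were 42.4 to 72.4, 71.6 to 119, 142 to 176 and 7.22 to 11.9 CPM. For 5 plasma cell markers the sums were 46.4 to 92.3 CPM before and 85.4 to 149 CPM after stimulation. For 8 markers of dendritic cells the sums were 8.15 to 33.1 CPM before and 6.94 to 62.7 CPM after stimulation. For 9 of erythroid cells and platelets the sums were 25.6 to 42.3 CPM before and 40.2 to 54.2 CPM after stimulation. For 8 measured ones of stromal and epithelial cells the sums were 178 to 213 CPM before and 52.9 to 93.8 CPM after stimulation. By edgeR none of the tested markers of these 8 lists rose, and 4 of them were higher at an unadjusted p under 0.05. With a library left out, edgeR called 3 of those named higher: Camp, of neutrophils, without stimulated replicate 1 (adjusted p = 0.0265), Ngp, of neutrophils, without stimulated replicate 1 (0.0389) or unstimulated replicate 3 (0.0455), and Zbtb46, of dendritic cells, without stimulated replicate 2 (0.0203). DESeq2 called the same 3 higher with all libraries, with adjusted p-values of 0.00341, 0.0122 and 0.0274, and edgeR with the replicate number as a block called Ngp higher (0.0374). Their part in the results was not tested. Those that fell by edgeR with all libraries were Cd22 of 8 tested B cell markers, Mpo of 8 neutrophil markers, Nkg7 and Gzma of 7 CD8 and natural killer markers, and Pecam1, an adhesion molecule that T cells also make, of 5 stromal markers. Markers at 0 in all 3 stimulated libraries included Pax5, Ebf1 and Blk of B cells, Tnfrsf17 of plasma cells, Ncr1, Klrd1, Klra7 and Gzma of natural killer and CD8 cells, Fcgr1 of macrophages, Clec9a and Cd209a of dendritic cells, Ly6g, Mpo and Retnlg of neutrophils, Pf4 and Ppbp of erythroid cells and platelets, and Col1a1, Pdgfra, Pdgfrb and Cdh5 of stroma. The call for Cd22 held only without unstimulated replicate 2 among the fits that left out 1 of the 6 libraries, with an adjusted p of up to 0.192, and that for Mpo only without unstimulated replicate 1, with up to 0.116. The call for Gzma was lost without unstimulated replicate 2 (adjusted p = 0.0572). Among named markers that edgeR did not call with all libraries, it called Csf1r lower without stimulated replicate 3 (adjusted p = 0.000104). Without stimulated replicate 1 it called Lyz2 (0.0452), Derl3 (0.0141), Ccr9 (0.0376) and Mzb1 (0.0408) lower. With all libraries DESeq2 called Blk, Ms4a1, Cd209a, Klrd1, Prf1 and Csf3r lower, and limma-voom Blk, Klrd1 and Csf1r. In bulk libraries such as these, fewer cells of a type and less RNA per cell cannot be told apart.

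Stimulation changed 2266 of the 14827 genes tested in Gpx4-deficient Treg cells, at an adjusted p under 0.05 by edgeR's quasi-likelihood test. Of these, 1105 rose (7.45% of the genes tested) and 1161 fell (7.83%), and 736 of the rises and 937 of the falls were at least 2-fold. The median log2 fold change over all genes tested was −0.02, that of the rises 1.25 and that of the falls −1.81. The stimulated and unstimulated libraries did not overlap for 2203 of the 2266 genes, while 29.8% of all genes tested were separated in that way. Leaving out any 1 of the 6 libraries kept 1344 of the calls (704 rises and 640 falls). Fitting these 6 libraries without the wild-type ones called 504 higher and 518 lower. That fit has fewer degrees of freedom and no longer shares the smaller spread of the wild-type libraries. The part of each was not tested.

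**Figure D1:**
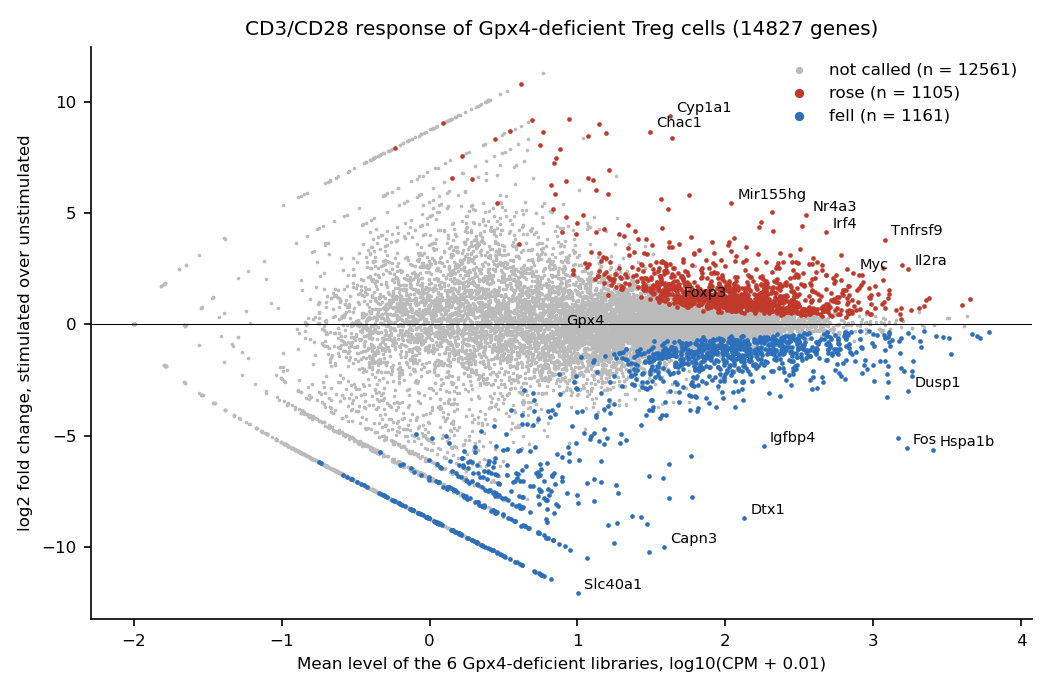
Response of each of the 14827 genes: the horizontal axis is the mean level over the 6 Gpx4-deficient libraries as log10(CPM + 0.01) and the vertical axis the log2 fold change of stimulated over unstimulated cells. Red points are the 1105 genes that rose, blue points the 1161 that fell, grey points the rest. The points on straight lines at low levels are genes at or near 0 in 1 state, where a fitted fold change has no firm size.

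Nr4a3, Irf4 and Il2ra had the smallest adjusted p among the rises. Nr4a3, an orphan nuclear receptor induced by antigen receptor signals, had 21.3, 20.3 and 26.2 CPM in unstimulated and 802, 626 and 611 CPM in stimulated libraries. Irf4, a transcription factor needed for effector Treg cells, went from 50.8, 56.8 and 48.5 to 793, 955 and 976 CPM. For both genes the states lay far apart, with log2 fold changes of 4.91, SE 0.18 and 4.13, SE 0.15 and adjusted p-values of 2.38e-08 and 2.38e-08.

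Of 26 effector lineage transcription factors, 12 rose and 1 fell, against 7.45% and 7.83% of all genes tested, with a median log2 fold change of 0.87. Hif1a, the oxygen-regulated factor that also supports glycolysis, rose from 261, 296 and 303 to 1148, 1331 and 1465 CPM (log2 fold change 2.20, SE 0.13, a notation used for the genes that follow; adjusted p = 4.37e-07). Irf8 rose from 69.7, 62.4 and 96 to 647, 518 and 422 CPM (2.80, SE 0.19; adjusted p = 1.44e-06). Id3, an inhibitor of E proteins that is high in resting Treg cells, was the factor that fell, from 232, 213 and 238 to 34.2, 27 and 30.2 CPM (−2.90, SE 0.19; adjusted p = 1.31e-06). No library of 1 state overlapped the other for any of the 3.

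Immediate early factors split into genes that rose and genes that were lower at 4 h. Of 23 AP-1, Egr and Nr4a family members, 9 rose and 6 fell; without unstimulated replicate 3, 5 rose. Fos (chr12:85473890-85477273), a subunit of AP-1, had 3280.1, 3408 and 3233 CPM in unstimulated cells and 81, 73.5 and 55.8 CPM in stimulated cells (−5.56, SE 0.16; adjusted p = 3.45e-09). Jun, its partner, fell from 2097, 2420.3 and 2229 to 259, 267 and 171 CPM (−3.27, SE 0.17; adjusted p = 1.53e-07). Junb fell from 3227, 3175 and 2542 to 799.5, 676 and 602 CPM (−2.11, SE 0.14; adjusted p = 1.21e-06). These 3 transcripts were thus high in the cells labelled unstimulated and lower in every stimulated library. In contrast Nr4a1, which encodes the receptor Nur77, rose from 448, 565 and 419.6 to 1819.8, 1466 and 1462 CPM (1.73, SE 0.13; adjusted p = 2.97e-06).

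Feedback regulators of the same signals also moved both ways. Of 17 tested genes of MAP kinase and calcineurin feedback, 5 rose and 3 fell. Dusp1, a phosphatase that inactivates MAP kinases, fell from 2888, 3144 and 3153 to 391, 399 and 366 CPM (−2.99, SE 0.09; adjusted p = 3.45e-09). Dusp6, a phosphatase of ERK, fell from 91.6, 103 and 127 to 18.3, 26.4 and 15.6 CPM (−2.41, SE 0.27; adjusted p = 8.89e-05). Dusp4 rose from 116, 106 and 103 to 379.9, 400.0 and 302 CPM (1.74, SE 0.14; adjusted p = 6.72e-06), and none of the 3 genes had overlapping states. Of 20 NF-kB subunits, inhibitors and targets, 9 rose and 3 fell (Tnfaip3, Birc2 and Tnip1); without unstimulated replicate 2, 1 fell. Nfkb2, the p100 precursor subunit, rose from 195, 221 and 187 to 446, 632 and 653 CPM (1.52, SE 0.14; adjusted p = 1.89e-05), and Tnfaip3, a deubiquitinase that restrains NF-kB, fell from 1637, 1748 and 1558 to 773, 651 and 816 CPM (−1.14, SE 0.12; adjusted p = 4.4e-05). Zfp36, which binds AU-rich cytokine mRNAs and promotes their decay, fell from 1201, 1152 and 911 to 196, 209 and 195 CPM (−2.44, SE 0.13; adjusted p = 2.68e-07); of its list of 14 mRNA decay factors 3 rose and 4 fell, and 2 fell when stimulated replicate 1 or 2 or unstimulated replicate 1 or 2 was left out.

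Genes of the T cell receptor machinery fell more often than they rose. Of 30 genes of the receptor complex and its proximal signalling, 15 fell and 5 rose, with a median of −0.47. Lck, the kinase that starts signalling at the receptor, had 1721, 1796 and 2002 CPM unstimulated and 559, 679.8 and 497 CPM stimulated (−1.67, SE 0.13; adjusted p = 3.99e-06). Dgka, which removes the second messenger diacylglycerol, went from 1318, 1424 and 1297 to 312, 431 and 393 CPM (−1.83, SE 0.12; adjusted p = 1.51e-06). Cd4, the coreceptor, fell from 798, 752 and 820.5 to 399, 353 and 242 CPM (−1.25, SE 0.16; adjusted p = 0.000297). Those that rose included Ptpn22, Cblb, Malt1 and Cd28. Ptpn22, a phosphatase that acts on Lck, rose from 351, 310.0 and 304 to 848, 964 and 968 CPM (1.53, SE 0.11; adjusted p = 3.61e-06). Cblb, a ubiquitin ligase that limits activation, rose from 169, 193 and 177 to 473, 421 and 408 CPM (1.27, SE 0.11; adjusted p = 1.36e-05).

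Of 27 costimulatory and checkpoint receptors 17 rose and 1, Cd96, fell, with a median of 1.33; 2 fell without stimulated replicate 1. Tnfrsf9, which encodes 4-1BB, had 175, 153 and 156 CPM before and 2166, 2435 and 2160.3 CPM after stimulation (3.80, SE 0.17; adjusted p = 7.35e-08). Tnfrsf4, which encodes OX40, rose from 354, 417 and 511 to 3017, 2265 and 2875 CPM (2.67, SE 0.14; adjusted p = 2.04e-07). Icos, a receptor of the CD28 family, rose from 333, 378 and 310.2 to 1823, 1834 and 2265 CPM (2.54, SE 0.11; adjusted p = 7.35e-08). Tigit, an inhibitory receptor found on effector Treg cells, rose from 38.1, 29.2 and 31.2 to 214, 229 and 284 CPM (2.88, SE 0.18; adjusted p = 6.43e-07). Every stimulated library exceeded every unstimulated one for all 4 receptors.

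Of 20 Treg identity genes 12 rose and 4 fell (Izumo1r, Capg, Itgae and Nrp1), with a median of 0.70. Il2ra, the alpha chain of the interleukin-2 receptor, rose from 562, 489 and 515 to 2689, 2886 and 3228 CPM (2.49, SE 0.09; adjusted p = 2.38e-08). Lrrc32, which encodes GARP and holds latent TGF-beta on the Treg surface, rose from 528, 446 and 447 to 1997, 1769.7 and 1804 CPM (1.97, SE 0.10; adjusted p = 1.8e-07). Ctla4, the receptor that competes with CD28 for ligand, rose from 308, 332 and 333 to 1084, 881 and 1204 CPM (1.70, SE 0.12; adjusted p = 1.59e-06), and Ikzf2, which encodes Helios, from 334, 382 and 349 to 837, 918 and 932 CPM (1.33, SE 0.12; adjusted p = 1.27e-05). The interleukin-2 family and its SOCS feedback had 9 rises and 5 falls among 19 members; 3 fell without unstimulated replicate 1, and 3 without unstimulated replicate 2. Among them Cish, an inhibitor induced by STAT5, went from 349, 420.1 and 409 to 1203, 1309.9 and 1148 CPM (1.64, SE 0.10; adjusted p = 4.65e-07), and Stat5a, which carries the interleukin-2 signal, from 131, 187 and 194 to 606, 865 and 901 CPM (2.21, SE 0.18; adjusted p = 6.42e-06).

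Cytokine and chemokine transcripts started from low levels. Of 36 tested cytokines, chemokines and effector molecules 13 rose and 2 fell (Ltb and Gzma), with a median of 1.87; DESeq2 called 23 higher. Penk, the precursor of enkephalin, rose from 139, 182 and 169.7 to 589, 551 and 620.1 CPM (1.84, SE 0.13; adjusted p = 2.97e-06). Ccl4, a chemokine that attracts T cells and monocytes, rose from 10.3, 7.53 and 4.57 to 83.9, 50.9 and 135 CPM (3.59, SE 0.45; adjusted p = 0.000223). Areg, a growth factor of tissue-repairing Treg cells, rose from 10.0, 17.4 and 11.6 to 90.7, 51.8 and 84.8 CPM (2.54, SE 0.38; adjusted p = 0.000804). Il17f, a cytokine of Th17 cells, was among the 14 largest rises: it had 0, 0.0769 and 0.151 CPM before and 2.15, 54.2 and 37.1 CPM after stimulation (8.61, SE 1.44; adjusted p = 0.00175), so that stimulated replicate 1 lay far below the other two. Ltb, which encodes lymphotoxin beta, fell from 994, 1061 and 994 to 192, 248 and 169 CPM (−2.33, SE 0.19; adjusted p = 6.41e-06). Of 16 tested genes of interleukin-1 and interleukin-18 reception and the inflammasome, 2 rose (12.5%) and Pycard fell (6.25%), against 7.45% and 7.83% of all genes tested. Without stimulated replicate 2 the falls of that list numbered 2. Il1r2, the decoy receptor for interleukin-1, rose from 91.5, 97.8 and 104 to 560.5, 640.4 and 722 CPM (2.71, SE 0.14; adjusted p = 1.53e-07). The other rise, of Il1rl1, lost its call without stimulated replicate 2 (adjusted p = 0.0537), unstimulated replicate 1 (0.0662) or unstimulated replicate 3 (0.069).

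**Figure D2:**
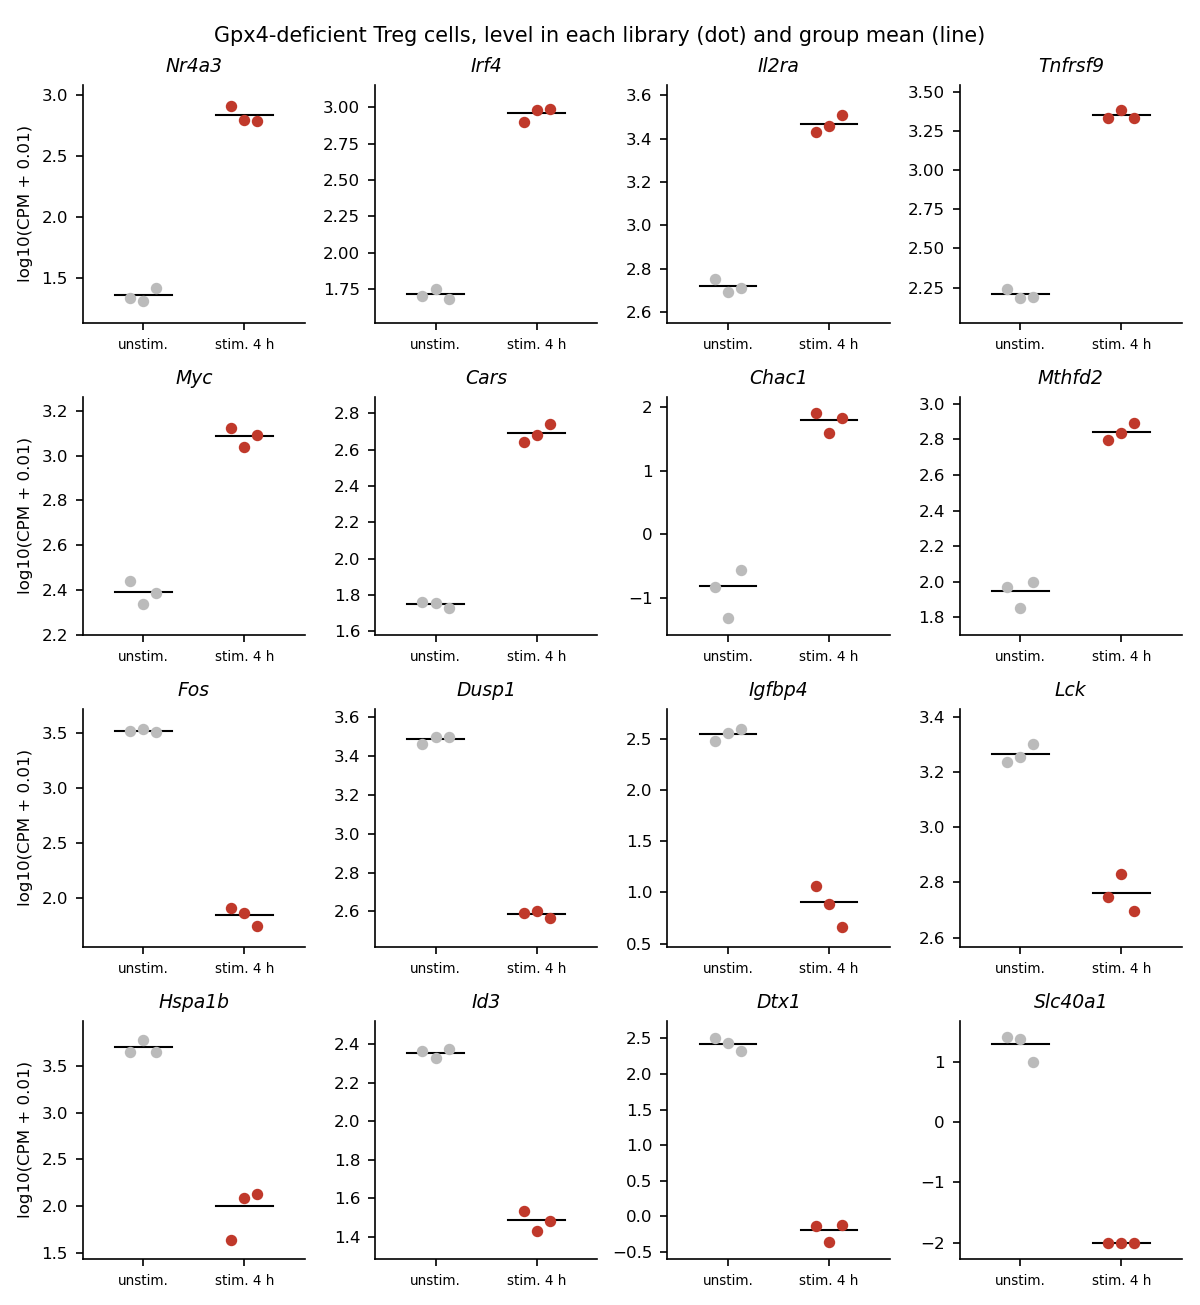
Level of 16 genes in each of the 6 Gpx4-deficient libraries, as log10(CPM + 0.01) on an axis of its own for each gene; grey dots are unstimulated, red dots stimulated libraries, and lines are group means. Stimulated and unstimulated libraries do not overlap for any of the 16 genes, and Slc40a1 has no count in any stimulated library.

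Among genes of naive and central T cells more fell than rose. Of 27 members 13 fell and 2, Ccr7 and Slfn2, rose, with a median of −0.94; 4 rose without stimulated replicate 2. Igfbp4, an insulin-like growth factor binding protein of naive T cells, fell from 302, 363 and 399 to 11.6, 7.75 and 4.6 CPM (−5.47, SE 0.37; adjusted p = 1.53e-06). S1pr1, the receptor that guides T cells out of lymph nodes, fell from 503, 402 and 485 to 211, 216 and 215 CPM (−1.11, SE 0.11; adjusted p = 2.32e-05). Il6ra fell from 192, 192 and 150.4 to 34.5, 50.6 and 41.5 CPM (−2.08, SE 0.21; adjusted p = 4.14e-05). All 3 had higher values in each unstimulated library than in any stimulated one. Chemokine receptors and integrins moved both ways, with 6 rises and 8 falls of 23. Ccr8, a receptor of activated Treg cells in tissue and tumours, rose from 143, 129.6 and 103 to 1177, 1030.5 and 1034 CPM (3.11, SE 0.14; adjusted p = 9.8e-08). Itgb7, the beta subunit of gut-homing integrins, fell from 1645, 1687 and 1839 to 321, 339 and 235 CPM (−2.53, SE 0.17; adjusted p = 1.44e-06).

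Among genes for making ribosomes more rose than fell. Of 38 genes of ribosome biogenesis, with Myc among them, 31 rose (median 1.05), the background being 7.45% for rises. Myc, the transcription factor that drives cell growth, went from 274, 218 and 242 to 1331, 1096 and 1232 CPM (2.32, SE 0.11; adjusted p = 1.41e-07). Ncl, which encodes nucleolin, went from 778, 732 and 659 to 1916, 1767 and 1857 CPM (1.35, SE 0.08; adjusted p = 5.14e-07). Translation initiation factors had 15 rises of 22 (median 0.79). Eif4ebp1, a repressor of cap-dependent translation, rose from 23.2, 28.6 and 16.9 to 221, 240.0 and 298 CPM (3.46, SE 0.20; adjusted p = 4.87e-07). The 76 cytosolic ribosomal proteins, in contrast, had 2 rises and 12 falls (median −0.11). In these proteins 7 rose and 7 fell without stimulated replicate 2, 7 fell without unstimulated replicate 1, 5 fell and 1 rose without unstimulated replicate 3, and 1 rose without unstimulated replicate 2. Of the 8 subunits of the TRiC chaperonin, which folds actin and tubulin, 4 rose. With the replicate number as a block 2 rose, with the Gpx4-deficient libraries alone 1, and with both settings 0. The call for Tcp1 was also lost without stimulated replicate 3 (adjusted p = 0.0921 by edgeR) or unstimulated replicate 1 (0.0592).

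Among genes of amino acid uptake and transfer RNA charging more rose than fell. Of 13 amino acid transporters 9 rose (median 1.31). Slc7a5 and Slc3a2 encode the light and heavy chains of the LAT1 transporter of large neutral amino acids. Slc7a5 rose from 33, 40.2 and 26.9 to 322, 274 and 300.1 CPM (3.16, SE 0.16; adjusted p = 1.53e-07), and Slc3a2 from 215, 196 and 202 to 939, 770.2 and 880.4 CPM (2.08, SE 0.10; adjusted p = 9.8e-08). Of 19 tested cytosolic aminoacyl-tRNA synthetases 14 rose and 1, Vars, fell (median 1.26). Cars, the cysteine enzyme, went from 57.4, 56.8 and 53.8 to 438, 478 and 552 CPM (3.13, SE 0.13; adjusted p = 3.17e-08), and Iars, the isoleucine enzyme, from 117, 91.2 and 98.6 to 680.5, 651 and 677 CPM (2.71, SE 0.15; adjusted p = 2.77e-07). Serine and folate one-carbon enzymes had 6 rises of 14 (median 1.23). Mthfd2, a mitochondrial folate enzyme of dividing cells, rose from 93.8, 71.1 and 99.3 to 625, 683 and 776 CPM (2.98, SE 0.14; adjusted p = 1.33e-07), and Shmt2, which makes one-carbon units from serine in mitochondria, from 153, 120.2 and 151 to 823, 765 and 679 CPM (2.42, SE 0.12; adjusted p = 1.53e-07).

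ATF4 is the transcription factor of the integrated stress response, made when amino acids are short or unfolded proteins build up. Of 23 tested genes of that response 16 rose and 1 fell, with a median of 2.54. Chac1, which degrades glutathione, had 0.141, 0.0384 and 0.264 CPM before and 79.7, 38.7 and 66.9 CPM after stimulation (8.66, SE 0.80; adjusted p = 1.9e-05). The member that fell was Ppp1r15a, the phosphatase subunit GADD34 that ends the stress response, from 1994, 2339 and 2193 to 393, 394 and 282 CPM (−2.61, SE 0.14; adjusted p = 2.03e-07). ATF4 binds DNA with C/EBP partners at a composite element, and the letters TGATGNAA were searched for on both strands of promoters of 300 bases (250 before to 50 after the start; RefSeq, GRCm38.p6). They were found in 238 of the 10130 promoters matched to tested genes (2.35%), in 6 of 21 matched promoters of the ATF4 list, of which 5 belonged to genes that rose, and in 5 of 12 matched promoters of the tRNA synthetases, all of genes that rose. In the 32 matched promoters of the ribosome biogenesis list the E-box CACGTG, the site of MYC, was found in 6, all of genes that rose, against 10.3% of all promoters. In the 18 matched promoters of the immediate early list neither the cAMP response element TGACGTCA nor the AP-1 site TGANTCA was found, against 3.22% and 4.94% of all promoters. The sterol element TCACNCCAC was found in 1 of 17 promoters of the cholesterol list, that of a gene that did not pass the test, against 0.967% of all promoters. A match is a description of the letters, and no match says only that these letters are not in the window.

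The promoters of 3 ATF4 response genes and 1 synthetase that hold the element are shown because most members of both lists rose; they were picked after their values were seen. Capitals mark each match in either orientation, and each sequence is the 250 bases before the start, 5′ to 3′ on the strand of the gene, at chr2:119350992-119351241 (plus strand) for Chac1, chr6:7693210-7693459 (minus) for Asns, chr3:50443614-50443863 (minus) for Slc7a11 and chr8:111033592-111033841 (plus) for Aars.
Chac1: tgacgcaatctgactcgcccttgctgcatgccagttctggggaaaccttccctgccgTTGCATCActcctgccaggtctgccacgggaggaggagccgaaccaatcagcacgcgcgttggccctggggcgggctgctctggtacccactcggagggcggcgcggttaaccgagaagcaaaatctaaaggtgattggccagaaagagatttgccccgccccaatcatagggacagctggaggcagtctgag
Asns: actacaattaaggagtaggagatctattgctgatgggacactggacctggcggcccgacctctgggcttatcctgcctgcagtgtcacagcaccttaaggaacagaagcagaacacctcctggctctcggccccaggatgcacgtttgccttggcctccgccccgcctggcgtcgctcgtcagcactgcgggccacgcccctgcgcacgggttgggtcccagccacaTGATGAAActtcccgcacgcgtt
Slc7a11: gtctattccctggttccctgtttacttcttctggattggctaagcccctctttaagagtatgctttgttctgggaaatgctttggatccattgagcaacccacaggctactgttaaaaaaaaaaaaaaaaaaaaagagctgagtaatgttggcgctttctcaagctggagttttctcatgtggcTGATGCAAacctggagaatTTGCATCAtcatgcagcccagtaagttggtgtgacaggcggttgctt
Aars: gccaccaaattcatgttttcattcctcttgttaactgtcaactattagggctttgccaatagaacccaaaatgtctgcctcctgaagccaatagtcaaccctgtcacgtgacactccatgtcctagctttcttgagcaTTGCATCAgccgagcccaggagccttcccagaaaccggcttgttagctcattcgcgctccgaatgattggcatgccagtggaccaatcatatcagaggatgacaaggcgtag
The element lies 193 bases before the start in Chac1 and 23 bases before it in Asns, counted to its first base. Slc7a11 has 2 matches, the first 66 bases before the start, and Aars has 1 in the stretch shown, 112 bases before the start, and 1 past the start. Asns, asparagine synthetase, rose from 18.1, 0.999 and 17.1 to 342, 465 and 399 CPM (5.06, SE 0.74; adjusted p = 0.00069). Slc7a11, the cystine importer that feeds glutathione synthesis, rose from 0.105, 0 and 0.0755 to 2.23, 1.64 and 41.6 CPM (7.85, SE 1.87; adjusted p = 0.0194), with most of its level in stimulated replicate 3. Aars, the alanine synthetase, rose from 126, 68.8 and 134 to 544, 529 and 460.5 CPM (2.22, SE 0.23; adjusted p = 5.49e-05).

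Genes tied to ferroptosis were looked at because the deleted enzyme guards against it. Of 26 tested genes of ferroptosis defence and glutathione 8 rose and 1 fell, with a median of 0.46. Without any 1 of the 3 stimulated libraries 2 fell. In wild type 5 of the 26 rose and 1 fell, with a median of 0.31. Of the 8 rises, Slc3a2, Slc7a11 and Cth are also among those of the ATF4 list. Txnrd1, thioredoxin reductase, rose from 109, 73.7 and 64.7 to 209, 193 and 205 CPM (1.29, SE 0.20; adjusted p = 0.000882). Fth1, the heavy chain of the iron store ferritin, rose from 1394, 1283 and 1133 to 1706, 1816 and 1781 CPM (0.48, SE 0.09; adjusted p = 0.00255). Slc40a1 (chr1:45908068-45926523), which encodes the iron exporter ferroportin, was the member that fell, from 26.1, 24.2 and 10.1 CPM to 0 in all 3 stimulated libraries (adjusted p = 0.000319). With 3 counts in the stimulated group taken as the floor it was at least 586-fold lower, and it fell in wild-type cells too, from a mean of 18.7 to 0.0406 CPM (adjusted p = 0.000759).

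Among 16 tested ferroptosis drivers and markers 6 rose, with a median of 0.22, and Chac1, also of the ATF4 list, was 1 of them. Without unstimulated replicate 2, 2 rose, and 1 fell without any 1 of the stimulated libraries. In wild type 4 of the 16 rose, with a median of 0.54. No member of this list or of the ferroptosis defence list was called by the test of the difference between both responses. Tfrc, the transferrin receptor that imports iron, rose from 11.7, 24 and 32.1 to 162, 173 and 163 CPM (2.88, SE 0.30; adjusted p = 5.97e-05). Acsl4 and Lpcat3, which place polyunsaturated fatty acids in membrane lipids, rose from 48.6, 26.5 and 35.6 to 238, 96.6 and 122 CPM and from 45.1, 38 and 44.6 to 80.0, 144 and 72.1 CPM. Their adjusted p-values of 0.0136 and 0.0168 passed the threshold but became 0.0566 and 0.0611 without unstimulated replicate 2, and that of Acsl4 became 0.0502 without unstimulated replicate 3. In the 24 tested genes of cholesterol synthesis and uptake 4 fell, among them Srebf2, Dhcr7 and Fdps, and 7 fell without stimulated replicate 2. The call for Fdps, a prenyl transferase, was lost without stimulated replicate 3 (adjusted p = 0.0594), unstimulated replicate 1 (0.0523) or unstimulated replicate 2 (0.0828). Srebf2, the sterol sensor's transcription factor, fell from 424, 423 and 352 to 188, 245 and 258 CPM (−0.79, SE 0.14; adjusted p = 0.00225). In fatty acid synthesis and desaturation 2 of 12 tested genes rose (16.7%) and 1 fell (8.33%), against 7.45% and 7.83% of all genes tested. The gene that fell was Scd2, a desaturase, from 170.3, 176 and 149.6 to 46.1, 19.6 and 30.4 CPM (−2.37, SE 0.26; adjusted p = 8.45e-05). In that list 2 fell without stimulated replicate 1 or 2, and 1 rose without unstimulated replicate 1 or 3.

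Among cytosolic heat shock chaperones more fell than rose. Of 22 members 9 fell and 2 rose (Hspa4 and Hsf2); 5 fell without unstimulated replicate 1, and 1 rose without any 1 of stimulated replicates 2 and 3 and unstimulated replicates 1 and 3. Hspa1a and Hspa1b are near-identical copies of inducible HSP70 whose reads can be split between them, so their sum is given, which was 7185, 9504 and 6919.9 CPM in unstimulated and 105, 245 and 199 CPM in stimulated libraries. Dnajb1, a cochaperone of HSP70, fell from 696, 791 and 703 to 86.8, 116 and 103 CPM (−2.84, SE 0.15; adjusted p = 1.8e-07). In unstimulated wild-type libraries the HSP70 sum was 1141, 1154 and 1317 CPM, below each unstimulated Gpx4-deficient library. After stimulation the sum was lower in wild type too, at 57.8, 60.5 and 52.7 CPM. Of the 22 members 3 rose and 5 fell in the wild-type response. Chaperones of the endoplasmic reticulum had 4 rises and 5 falls of 21, with 2 falls without unstimulated replicate 2 or 3 and 2 rises without stimulated replicate 3 or unstimulated replicate 1 or 2. Xbp1, a factor of the unfolded protein response, rose from 153, 167 and 196 to 403, 414 and 407 CPM (1.25, SE 0.12; adjusted p = 2.12e-05), and Pdia3, a disulfide isomerase, fell from 687, 781 and 957 to 391, 374 and 352 CPM (−1.12, SE 0.13; adjusted p = 9.85e-05). Of 38 proteasome subunits 11 rose and 2 fell; the 2, Psmb8 and Psmb10, are subunits of the immunoproteasome.

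Most transcripts of the mitochondrial genome rose, while most nuclear genes of the respiratory chain did not pass the test. Of 13 mitochondrially encoded protein genes 11 rose, with a median of 1.18. mt-Cytb, the cytochrome b of complex III, had 3163, 2565 and 2719 CPM before and 5532, 5838 and 7323 CPM after stimulation (1.15, SE 0.11; adjusted p = 2.01e-05). mt-Nd5, of complex I, went from 769, 628 and 585 to 1753, 1762 and 2179 CPM (1.52, SE 0.15; adjusted p = 2.74e-05). mt-Co1, of complex IV, picked after its values were seen, had 4631, 3874 and 4167 CPM and 4102, 3769.9 and 4145 CPM (−0.08, SE 0.08; adjusted p = 0.576), and its states overlapped. Of 75 tested nuclear genes of oxidative phosphorylation 4 rose and 1 fell, shares under the background, with a median of −0.01. In that list 6 fell without stimulated replicate 3, 2 without stimulated replicate 2 and none by edgeR without unstimulated replicate 2 or 3, and 2 rose without unstimulated replicate 3. None of 18 factors of mitochondrial DNA and RNA passed edgeR's test, with 2 higher and 4 lower at an unadjusted p under 0.05; DESeq2 called 1 higher and 3 lower, and limma-voom 3 lower. In edgeR fits without stimulated replicate 1, 2 or 3 the falls of that list numbered 2, 2 and 1, and 1 rose without stimulated replicate 1 or 2 or unstimulated replicate 1. Of 21 genes of mitochondrial import and chaperones 8 rose, and Hspa9, the mitochondrial HSP70, went from 196, 260.3 and 206 to 548, 579 and 655 CPM (1.43, SE 0.12; adjusted p = 1.28e-05).

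No gene of the S phase and mitosis lists passed edgeR's test as a rise at 4 h, and the number higher at an unadjusted p under 0.05 was also 0, as were the numbers called higher by DESeq2 and limma-voom. Of 29 genes of replication and S phase 5 fell (Mcm3, Mcm2, Gins1, E2f2 and Mcm7), 8 without stimulated replicate 1. Mcm2, part of the helicase that unwinds DNA for replication, fell from 223, 147 and 194 to 84.1, 90.2 and 93 CPM (−1.08, SE 0.19; adjusted p = 0.0024). Of 25 genes of G2/M and mitosis 1 fell (4%), under the share of 7.83% over all genes tested. It was Kif11, a spindle motor, from 50.9, 47.6 and 66 to 1.33, 0.401 and 8.11 CPM (−4.07, SE 0.80; adjusted p = 0.00486). That call was lost with the Gpx4-deficient libraries alone (adjusted p = 0.0638), and DESeq2 gave no adjusted p for Kif11. The falls of that list numbered 2, 4 and 3 without stimulated replicates 1, 2 and 3 and 2 without unstimulated replicate 1. Without stimulated replicate 2, 1 gene of it rose. Purine and pyrimidine synthesis had 3 rises and 4 falls of 23, with 1 fall without any 1 of the 3 unstimulated libraries and 5 rises without stimulated replicate 3. Ctps, which makes CTP, rose from 13.9, 22.2 and 32.8 to 155, 114 and 124 CPM (2.51, SE 0.28; adjusted p = 9.85e-05). Glycolysis and lactate export had 5 rises and 6 falls of 23, with 10 falls without stimulated replicate 1, 3 falls without unstimulated replicate 1 and 3 rises without unstimulated replicate 1 or 3. Hk2, the inducible hexokinase, rose from 1.37, 6.65 and 5.55 to 63.7, 27.3 and 39.4 CPM (3.26, SE 0.56; adjusted p = 0.00209), and Eno1, enolase, fell from 1744, 1623 and 1774 to 972, 828 and 805 CPM (−0.98, SE 0.09; adjusted p = 1.77e-05). Of 24 tested BCL2 family and death regulators 4 rose (16.7%) and Casp8 fell (4.17%), against 7.45% and 7.83% of all genes tested. The call for Casp8 was lost without stimulated replicate 1 or any unstimulated library. Bcl2l1, which encodes the survival protein BCL-XL, rose from 77.2, 87.9 and 104 to 250.4, 282 and 305 CPM (1.64, SE 0.13; adjusted p = 6.4e-06).

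Of 33 interferon-stimulated genes 7 rose and 9 fell, with a median of −1.03, and 8 had a log2 fold change above 0. By edgeR 7 were higher and 16 lower at an unadjusted p under 0.05. The falls numbered 5 and 4 without unstimulated replicates 1 and 3. Those that rose included Iigp1 and Igtp, GTPases induced by interferon gamma. Iigp1 went from 98.9, 95.5 and 119.8 to 763, 667 and 750.1 CPM (2.79, SE 0.14; adjusted p = 1.53e-07), and Igtp from 381, 378 and 422 to 1044, 847 and 1057 CPM (1.32, SE 0.12; adjusted p = 1.61e-05).

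**Figure D3:**
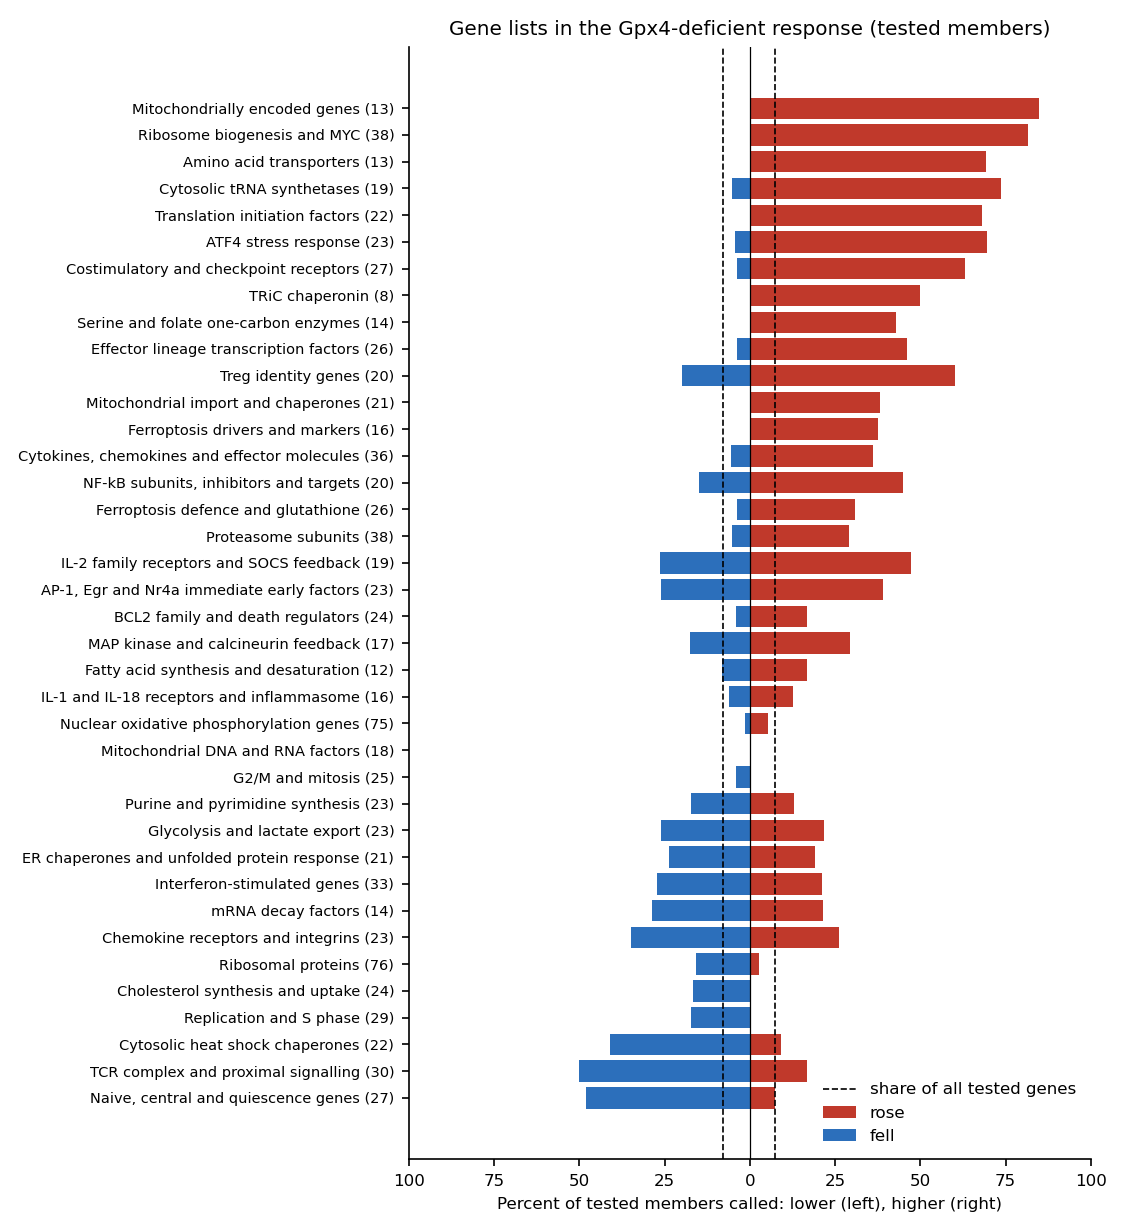
Percent of the tested members of each of 38 gene lists that fell (blue, to the left) and rose (red, to the right) in Gpx4-deficient cells; the number of tested members stands in brackets and dashed lines mark the shares over all genes tested, 7.83% for falls and 7.45% for rises. Lists of ribosome biogenesis, tRNA synthetases, costimulatory and checkpoint receptors and mitochondrially encoded genes extend mainly to the right. Lists of receptor signalling, naive cells and heat shock chaperones extend mainly to the left.

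Cyp1a1, a target of the aryl hydrocarbon receptor, had the largest rise, from 0.141, 0.0384 and 0.189 to 171, 58.9 and 22.4 CPM (9.36, SE 1.42; adjusted p = 0.000894). Gprc5a, an orphan receptor, followed, from 0.0351, 0 and 0.113 to 43.6, 23 and 17.1 CPM (9.01, SE 1.09; adjusted p = 0.000169). Slc1a4, a neutral amino acid transporter, rose from 0.246, 0.192 and 0.34 to 38.9, 104 and 116 CPM (8.36, SE 0.85; adjusted p = 4.51e-05). The remaining named rises were Chac1, Il17f, Gng4, Gls2, Ccl20, Pkib, Map9, Cd80, Ramp3, Gas2l3 and Mir155hg. Mir155hg, the host transcript of miR-155, rose from 4.11, 6.19 and 4.49 to 189.6, 173 and 278 CPM (5.44, SE 0.32; adjusted p = 5.45e-07). The call for Gls2 was lost without unstimulated replicate 1 (adjusted p = 0.0513) or 2 (0.0676). That for Pkib was lost without stimulated replicate 1 (0.0641) or 3 (0.0823) or unstimulated replicate 1 (0.119) or 2 (0.129). Gas2l3 had no call by DESeq2 or with the Gpx4-deficient libraries alone, and Map9, Gls2 and Pkib had none with those libraries alone.

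Of the 1161 genes that fell, 110 had no count in any stimulated library and 270 had none in at least 1. Of the 802 genes that fell in wild-type cells these numbers were 21 and 49. Dtx1, a regulator of Notch signalling linked to T cell anergy, had 322, 270.1 and 210.5 CPM unstimulated and 0.718, 0.432 and 0.754 CPM stimulated (−8.72, SE 0.63; adjusted p = 2.73e-06). Rtn4rl1 had 48.6, 24.9 and 32.1 CPM before and 3 counts in all after stimulation, a 1030-fold ratio with an exact 95% interval of 352 to 4997 that covers counting error only. Acad10 had 50.2, 12.1 and 7.51 CPM before and 1 count after it, a ratio of 2080 with an interval of 373 to 82196. The other named falls were Slc40a1, Ifit1bl1, Capn3, Kifc2, Ifi213, Abcg3, BC147527, Cd72, Cpq, Sema4f and Tbxa2r. All 14 had every stimulated library under 1 CPM and every unstimulated library at 7.51 CPM or more, which stands beside the lower number of genes detected in the stimulated libraries, whose part was not tested.

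The response was then set beside that of wild-type Treg cells, with which it shares no library. In wild type 907 genes rose (6.12% of those tested) and 802 fell (5.41%); the falls numbered 527 without stimulated wild-type replicate 3 and 530 to 532 without any 1 of the unstimulated ones. The rises called in both genotypes numbered 665, which is 60.2% of the Gpx4-deficient and 73.3% of the wild-type rises. The falls called in both numbered 552, or 47.5% and 68.8%. Only 3 genes were called in opposite directions, and 1077 of the 1105 rises and 1089 of the 1161 falls had the same sign in wild type. Across 8687 genes with every group mean at least 5 CPM the log2 fold changes of both genotypes had a Pearson correlation of 0.76, against 0.42 over all genes tested. Genes are not independent replicates, and these values are a description. In wild type 35 genes of the ribosome biogenesis list rose (median 1.48), 16 of the ATF4 list rose and 1 fell (median 2.69), and 13 genes of the receptor complex list fell and 5 rose; how these counts differ from those without Gpx4 was not tested as lists.

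**Figure D4:**
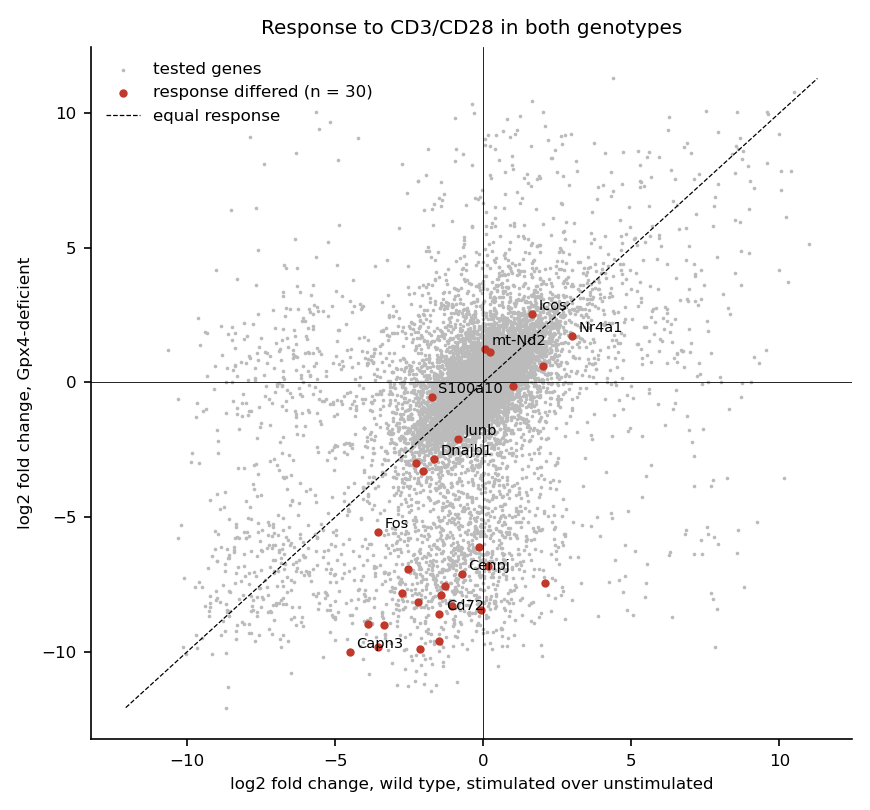
log2 fold change of each tested gene in wild-type cells (horizontal axis) and in Gpx4-deficient cells (vertical axis); the dashed line marks equal responses and red points the 30 genes whose response differed by the test of the difference. Most of the red points lie below the line, with the largest gaps among genes near 0 in stimulated Gpx4-deficient cells.

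A test of the difference between both responses called 30 genes (0.202% of those tested), 4 higher and 26 lower in Gpx4-deficient cells, and 1298 genes had an unadjusted p under 0.05. Fos and Capn3 alone were called whichever of the 12 libraries was left out, and limma-voom called none (unadjusted p under 0.05 for 1398) while DESeq2 called 135 higher and 250 lower. Without stimulated Gpx4-deficient replicate 1, 2 or 3 the genes called lower numbered 108, 142 and 57, and without any 1 of the other 9 libraries between 2 and 10. For 18 of the 26 the mean in stimulated Gpx4-deficient cells was under 1 CPM. Immediate early factors made up 6 of the 26.

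Fos fell further without Gpx4. Wild-type libraries had 1384, 1384 and 1728 CPM before and 132, 135 and 116 CPM after stimulation, a log2 fold change of −3.55 against −5.56 in Gpx4-deficient cells, and the difference was −2.01 (SE 0.19, adjusted p = 0.00206). Fos was higher in each unstimulated Gpx4-deficient library and lower in each stimulated one than in any wild-type library of the same state. Nr4a1 rose less, from 414, 355 and 412 to 3143, 3185 and 3195 CPM in wild type, with a difference of −1.28 (SE 0.17, adjusted p = 0.0204). Capn3, a calcium-dependent protease, had 78.5, 111 and 75.5 CPM before and 2.93, 3.28 and 5.42 CPM after stimulation in wild type. In Gpx4-deficient cells it had 80.9, 69.3 and 79.1 and 0.0359, 0.0926 and 0.0754 CPM, and the difference was −5.51 (SE 0.52, adjusted p = 0.00206). Cd72, a receptor best known from B cells, had 40.5, 32.6 and 34.5 and 8.05, 23.9 and 6.63 CPM in wild type against 49.4, 33.7 and 56.6 and 0.144, 0.0926 and 0.113 CPM, a difference of −7.11 (SE 0.78, adjusted p = 0.00575). Levels of Cd72 before stimulation overlapped between the genotypes, and those after it did not. Tbxa2r, the thromboxane receptor, and Cenpj, a centriole protein, differed by −5.06 and −6.40 (adjusted p = 0.015 and 0.015). The call of Cd72 was lost without any 1 of the unstimulated wild-type libraries, with adjusted p up to 0.0615. Those of Tbxa2r and Cenpj were lost without any 1 of these or without unstimulated Gpx4-deficient replicate 1 or 2, with adjusted p up to 0.106 for each. That of Nr4a1 was lost without any 1 of the 6 wild-type libraries or without unstimulated Gpx4-deficient replicate 1 or 2, with up to 0.144.

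The 4 genes with a higher response in Gpx4-deficient cells were mt-Nd2, mt-Cytb, S100a10 and Icos. mt-Nd2, of complex I, had 239.8, 249 and 264 CPM before and 240.4, 277 and 276 CPM after stimulation in wild type, against 377, 337 and 346 and 700.3, 808 and 969.9 CPM without Gpx4. The difference was 1.15 for mt-Nd2 (SE 0.18, adjusted p = 0.0294) and 0.92 for mt-Cytb (SE 0.15, adjusted p = 0.0361). None of the 13 mitochondrially encoded genes was called by edgeR in the wild-type response, where 2 were higher and 1 lower at an unadjusted p under 0.05. Icos had 298, 322 and 289 CPM before and 947, 974 and 928 CPM after stimulation in wild type, so that every stimulated Gpx4-deficient library was above every stimulated wild-type one, and the difference was 0.89 (SE 0.15, adjusted p = 0.0439). S100a10, an annexin partner, fell from 305, 353 and 281 to 100.4, 90.3 and 90.9 CPM in wild type and from 240.5, 244 and 264 to 161, 152 and 204 CPM without Gpx4 (difference 1.20, SE 0.20, adjusted p = 0.0405). The fall of S100a10 without Gpx4 was itself lost, with adjusted p up to 0.0693, without stimulated replicate 1 or 2 or unstimulated replicate 2 or 3. Each of the 4 calls was lost without any 1 of the 6 wild-type or 3 unstimulated Gpx4-deficient libraries, with adjusted p up to 0.144 for mt-Nd2, mt-Cytb and S100a10 and 0.167 for Icos.

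**Figure D5:**
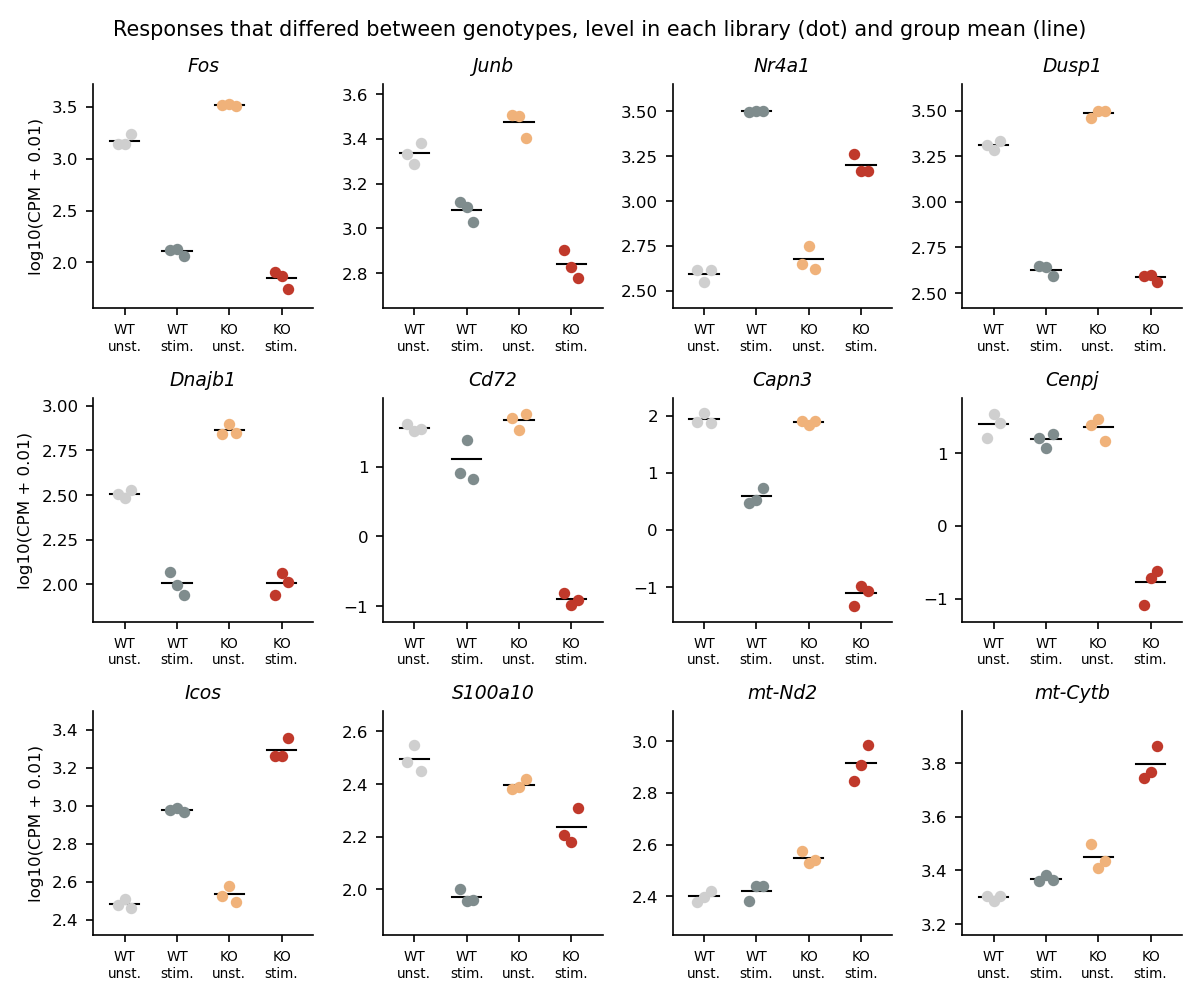
Level of 12 genes whose response differed between the genotypes, in each of the 12 libraries as log10(CPM + 0.01), on an axis of its own for each gene; KO marks Gpx4-deficient cells and lines are group means. Fos, Junb, Dusp1 and Dnajb1 start higher in unstimulated Gpx4-deficient libraries. In stimulated Gpx4-deficient libraries Cd72, Capn3 and Cenpj end near 0, and Icos, mt-Nd2 and mt-Cytb end highest.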

How the data were processed

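Stranded mRNA libraries were made from Treg cells in 4 groups of 3 (Gpx4-deficient and wild type, each unstimulated and stimulated), from TruSeq kits per the labels' protocols. The authors deposited gene-level expected counts, estimates that need not be whole, and between 14.8% and 18.1% of a library's values were not whole. The submitters' processing notes name GRCm38 as the genome build. The sources used here give no aligner, version or annotation. Positions come from the GENCODE annotation of that build, and promoters from RefSeq (GRCm38.p6).

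Values were rounded to whole numbers and tested with edgeR 4.0.16 (R 4.3.3; quasi-likelihood test, TMM scaling, filterByExpr) in 1 fit of all 12 libraries, which share 1 estimate of the spread. Contrasts were the response in each genotype and the difference between both responses. Adjusted p-values are Benjamini-Hochberg over all 14827 genes tested, with a threshold of 0.05, and a gene is called where it passes. Values in parentheses after levels are log2 fold changes with their standard errors (SE). Each SE is the size of the log2 fold change divided by the square root of its F statistic. For genes near 0 in 1 state neither the fold change nor this SE has a firm size. CPM are the rounded counts scaled to library totals after TMM. The fits were tested on simulated data. Totals of 24629225 to 31879259 counts set the precision, and all intervals cover counting error only.

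Named genes were Gpx4, Foxp3, the 14 largest rises and falls with a higher group mean of at least 20 CPM and separate states (antigen receptor segments, sex-linked genes, predicted genes and histones passed over), up to 4 members of each of 47 gene lists (9 of them markers) by adjusted p, and up to 6 response differences in each direction. Members of short counts, Asns, Slc7a11, Aars and mt-Co1 were named after their values were seen. The members, lists and rules were chosen with earlier results of these data known. Lists share members, so the same gene can count in more than 1 of them. Of the rises of the ATF4 list, Slc3a2 and Slc7a11 also count among the amino acid transporters and Cars among the synthetases. Mthfd2, Psat1 and Phgdh count among the serine and folate enzymes too. Alternatives were DESeq2 1.42.0, limma-voom (limma 3.58.1), other scaling and filters, a minimum fold change, a replicate block, Gpx4-deficient libraries alone, and leaving out each library. A few genes are not reported here.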

Additional observations from a re-analysis of the deposited data

Results flagged for a closer look

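The response of 17 named genes differed between Gpx4-deficient and wild-type cells by edgeR's test of the difference between both log2 fold changes, and each value below is that difference. Immediate early genes and a chaperone partner responded lower in Gpx4-deficient cells: Fos by −2.01, Nr4a1 by −1.28, Junb by −1.26, Jun by −1.24, Dusp1 by −0.73 and Dnajb1 by −1.19. Among genes near 0 in stimulated Gpx4-deficient cells the differences were −5.51 for Capn3, −7.11 for Cd72, −5.06 for Tbxa2r, −6.40 for Cenpj, −6.24 for Rtn4rl1, −5.04 for Ifi213 and −5.66 for Kifc2. Higher responses were those of mt-Nd2 (1.15), mt-Cytb (0.92), S100a10 (1.20) and Icos (0.89). Of these 17 calls, those of Fos and Capn3 alone held without any 1 of the 12 libraries. The common dispersion of 1.43 in stimulated Gpx4-deficient libraries, above the other groups, stands beside all of them, and its part was not tested.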

How the results depend on the processing

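The 1105 rises and 1161 falls of Gpx4-deficient cells became 1697 and 1889 with DESeq2. They became 504 and 518 with the Gpx4-deficient libraries alone, with fewer degrees of freedom and without the smaller spread of the wild-type libraries. The part of each was not tested. With a minimum log2 fold change of 1, a stricter question, the rises and falls numbered 224 and 310. Leaving out 1 of their 6 libraries gave 864 to 1221 rises and 785 to 1300 falls. DESeq2 also called 2253 of the 2266 genes in the same direction, and limma-voom 2132. The 802 falls in wild type were 1341 with DESeq2, and 527 to 566 without 1 wild-type library. For the response difference, 4 genes higher and 26 lower became 135 and 250 with DESeq2 and 0 and 0 with limma-voom (unadjusted p under 0.05 for 1398 genes). The genes higher were 8 with a filter of at least 5 CPM, 7 with no filter and 1 without mitochondrially encoded genes. Without 1 of the 12 libraries 0 to 25 genes were higher, none by edgeR without 7 of them, and 2 to 142 lower. Of 3679 values of named genes compared with an alternative 3262 kept direction and call, and 1 passed the test with the opposite sign: Mzb1, a plasma cell marker, had a log2 fold change of 0.31 with all libraries, 0.92 without stimulated replicate 2 and −9.55 without stimulated replicate 1. Signs that passed no test also turned for Alas2, Cd79a, Flt3, Gpx4, Itga2b and Sdc1. Of 1216 list counts compared, 970 stayed within 1.5 times. Where no cause is given here, the cause was not tested.

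Whether replicate numbers pair the libraries is not stated in the labels. Deviations from the group mean of same-numbered stimulated and unstimulated libraries correlated between −0.02 and 0.03. Those of differently numbered ones correlated between −0.04 and 0.04. Every tested gene, low counts included, weighs equally in these values, so they cannot tell whether same-numbered libraries share a source. With the number as a replicate block 841 genes rose and 781 fell in Gpx4-deficient cells (699 and 566 in wild type), 244 and 229 with these libraries alone, and the response difference had 0 genes higher and 0 lower by edgeR (unadjusted p under 0.05 for 886).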
